A study of Mus musculus with 9 samples.

Results

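Genes with the names of zinc finger transcription factors were followed across 9 bone marrow libraries. They are the columns of the deposited table whose symbol begins with Zfp, Zbtb, Zkscan, Zscan or Klf and a number, without Zfp36, whose product binds messenger RNA. The rule took 33 of the 2402 genes of the table, namely 23 Zfp, 6 Zbtb, 2 Zkscan and 2 Klf genes, and no Zscan gene. Members were counted where 2 or more libraries reached 10 normalized counts, a filter that 29 members and 2341 genes of the table passed. Klf12, Zbtb4, Zfp341 and Zfp354b did not pass it. The mouse annotation GENCODE M21 holds 481 protein-coding genes with such names, of which 6.86% were in the table, against 10% of all 21992 protein-coding genes.

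Zinc finger proteins of this kind hold a zinc ion in short loops of cysteine and histidine residues and read DNA with rows of such fingers. Krüppel-like factors bind GC-rich and CACCC-type sites and act in the growth and maturation of many blood cells. Zbtb proteins carry a BTB domain that pairs them and recruits corepressors, and many Zfp and Zkscan proteins carry a KRAB domain that recruits the corepressor TRIM28 and silences DNA, including remnants of transposons. The name rule does not test for domains. Zfp106 encodes an RNA-binding protein, and Zfp703 encodes a corepressor of an atypical zinc finger family.

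The cells came from bone marrow of male C57BL/6 mice from crosses of Flt3-cre and mTmG animals. In these, Cre made under Flt3 control switches a cell and its progeny from red Tomato (Tom+) to GFP (GFP+), and all groups came from this cross. The labels list megakaryocyte progenitors, the precursors of the platelet-forming cells, as 3 samples of GFP+ cells from young mice (3 months), 2 of GFP+ cells and 2 of Tom+ cells from old mice (18 to 20 months), and 2 samples of Tom+ haematopoietic stem cells from old mice. Progenitors were sorted as lineage-negative, cKit+, Sca1-, CD150+ and CD41+, and stem cells as lineage-negative, cKit+, Sca1+ (printed in the labels as Sca+-), CD150+ and Flk2-. The 9 rows of the table carry no sample name, so no library has a group here, no comparison of ages, colours or cell types was made, and libraries are numbered 1 to 9 by row, as names only.

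Ly6a, the gene of the Sca1 antigen, stood at 4256 and 5772 normalized counts in libraries 3 and 4 and at 20.98 to 187 in the other 7. Libraries 3 and 4 are therefore described beside the other 7, by that threshold of 1000, without assigning any of them to a sort. The summed level of 8 measured stem cell markers of 12 listed was 16569 to 24381 in libraries 3 and 4 and 777 to 2998 in the others. That sum contains Ly6a itself (4256 and 5772), the gene that set the threshold. Each of the others, Procr, Ltb, Ndn, Tie1, Mecom, Hlf and Kit, was also higher in both libraries than in any of the other 7. Tie1 came closest (2733 and 1904 against 449 to 1676). The sum of 6 measured megakaryocyte markers of 9 listed was 3040 to 8759 against 74421 to 140340, that of 3 erythroid markers of 7 listed was 287 to 309 against 5752 to 8528, and that of 4 granulocyte and monocyte markers of 6 listed was 12329 to 12916 against 366 to 2142. Prtn3 made up most of the last sum (12248 and 11466 in libraries 3 and 4), while Csf1r (0 and 1.14 against 3.07 to 82.6) and Cebpa (0 in both against 1.64 to 41.2) were lower there. Aqp1 made up most of the erythroid sum (280 and 294 in libraries 3 and 4 against 5422 to 8514). Ermap was also lower there (2.36 and 5.72 against 10.5 to 352). Rhd, at 4.72 and 9.15 there, was at 3.15 in library 8 and at 98.5 to 1187 in the remaining libraries. The sum of 3 T and NK cell markers of 4 listed came to 723 to 1180 against 2236 to 27179, through Nkg7 (185 and 667 against 2153 to 27162), while Klrb1c (493 and 469 against 0 to 68.2) and Lck (44.8 and 43.5 against 6.99 to 26.8) were higher in libraries 3 and 4. Single measured markers of B cells (Vpreb1), mast cells (Fcer1a) and macrophages (Cd5l) were at no more than 12.3, 103 and 39.8 in any library, and Cd5l was at 0 in libraries 3 and 4. Depth over the table ran from 1790670 reads in library 3 to 4373460 in library 9, with 2050047 in library 4. The part of these differences in the results below was not tested, and in sorted bulk RNA fewer cells of a type cannot be told apart from less RNA per cell.

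Promoters were read for 5 of the members on which the results turn, to show what lies before a RefSeq start of genes that stood high or low together. RefSeq (build GRCm38.p6) gave a start for 27 of the 33 members, without Zfp521, Zfp612, Zfp623, Zfp703, Zkscan3 and Zkscan5, and the 250 bases before it are printed 5′ to 3′. Zfp467 (chr6:48445091-48445340, minus strand), Klf6 (chr13:5861239-5861488, plus strand) and Zbtb42 (chr12:112678590-112678839, plus strand) were highest in libraries 3 and 4, and Zbtb45 (chr7:13009853-13010102, minus strand) and Zfp422 (chr6:116628702-116628951, minus strand) lowest there. Capitals mark a match to a searched motif on either strand, which is GGGGCGGGG of SP factors in Zbtb42 and CCGGAAGT of ETS factors in Zbtb45.
Zfp467: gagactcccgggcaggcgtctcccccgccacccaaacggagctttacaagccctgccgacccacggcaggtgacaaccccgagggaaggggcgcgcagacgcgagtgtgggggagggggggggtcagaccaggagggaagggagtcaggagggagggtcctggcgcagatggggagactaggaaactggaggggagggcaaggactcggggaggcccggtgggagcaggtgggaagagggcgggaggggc
Klf6: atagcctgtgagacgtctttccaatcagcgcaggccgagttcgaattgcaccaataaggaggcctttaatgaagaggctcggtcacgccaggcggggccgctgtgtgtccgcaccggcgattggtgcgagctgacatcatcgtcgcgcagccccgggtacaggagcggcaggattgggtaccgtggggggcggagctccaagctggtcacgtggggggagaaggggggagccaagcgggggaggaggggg
Zbtb42: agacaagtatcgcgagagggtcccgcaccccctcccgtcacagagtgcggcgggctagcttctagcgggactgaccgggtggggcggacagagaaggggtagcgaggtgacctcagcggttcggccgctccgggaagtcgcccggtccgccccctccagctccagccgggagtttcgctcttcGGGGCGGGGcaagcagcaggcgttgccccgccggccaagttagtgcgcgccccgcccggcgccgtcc
Zbtb45: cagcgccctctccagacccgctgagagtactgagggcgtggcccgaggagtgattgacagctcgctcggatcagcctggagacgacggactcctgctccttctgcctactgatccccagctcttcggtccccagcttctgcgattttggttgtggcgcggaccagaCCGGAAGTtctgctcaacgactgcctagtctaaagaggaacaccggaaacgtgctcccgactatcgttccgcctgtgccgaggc
Zfp422: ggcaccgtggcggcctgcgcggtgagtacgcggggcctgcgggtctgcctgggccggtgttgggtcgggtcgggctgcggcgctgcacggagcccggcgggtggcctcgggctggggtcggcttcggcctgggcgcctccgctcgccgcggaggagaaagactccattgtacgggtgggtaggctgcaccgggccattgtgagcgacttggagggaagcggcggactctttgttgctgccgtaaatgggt

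The 5 windows had 70.4%, 64.8%, 72.0%, 61.2% and 71.6% G and C, in that order, against a median of 52.4% over all 32851 RefSeq promoter windows of this length and 59.6% over those of genes of the table. The SP motif was in 9 of the 33 windows of members (27.3%), in 19.4% of the 2293 windows of genes of the table and in 10.4% of all windows. The GATA motif AGATAA was in 3 of the members' windows, against 9.99% of all, the ETS motif in 2 (2.88% of all), the Krüppel-like box CCACACCC in 2 (3.20%), the AP-1 motif TGANTCA in 2 (6.75%) and the CRE motif TGACGTCA in 1 (1.55%). None of the 6 motifs matched in the printed windows of Zfp467, Klf6 and Zfp422. Some members have more than 1 start, the motifs were searched on both strands, and a match is a description of letters only. RefSeq and GENCODE M21 starts can differ. The GENCODE spans of the minus-strand genes Zfp467 (to 48445825) and Zfp422 (to 116628999) contain their printed windows. Those of Zbtb45, Klf6 and Zbtb42 overlap part of theirs.

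Most zinc finger genes of the table stood higher in libraries 3 and 4 than in any other library. Both values lay above all other 7 for 19 of the 29 members that passed the filter, against 51% of all genes of the table, and below all other 7 for 5 members, against 40.8%. The remaining 5 overlapped. Zfp57 passed the filter through libraries 3 and 4 alone, so its place among the 19 is partly set by the filter, Zfp521 and Zfp612 passed through these and library 8, and Zbtb34, among the 5, passed through libraries 6 and 9 alone. In this table nearly every gene sets these libraries apart, since 2147 of 2341 genes (91.7%) fell on one side or the other and only 8 lay within 0.3 log2 units of the median of the 7 in both libraries. How the 2402 genes were chosen is not given in the sources used here, so a separation of a member cannot be told apart from its being in the table. The gap between the nearer of libraries 3 and 4 and the nearest other library exceeded counting error (95% exact conditional interval away from 1) for 9 members above, against 38.1% of all genes, and 3 below, against 34.5%.

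**Figure D1:**
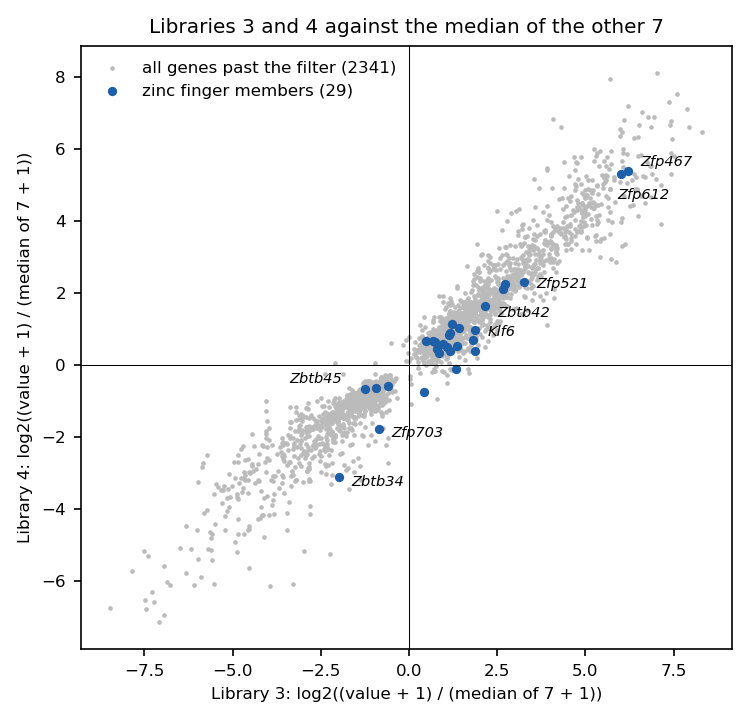
Each point is 1 gene, with its value in library 3 (x axis) and library 4 (y axis) over the median of the other 7 libraries, as log2 of normalized counts with 1 added. Blue points are the 29 members, of which Zfp467 and Zfp612 lie farthest to the upper right, and grey points are all 2341 genes, with few near the crossing of the axes.

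The size of these differences depended on the scaling of the libraries. On the deposited scale the median of all genes lay 0.83 and 0.57 log2 units above the median of the 7 in libraries 3 and 4, and the median of the 29 members 1.15 and 0.64. With size factors computed from the table itself (median of ratios) the medians of all genes were 0.20 and 0.20, 10 of 29 members lay above, against 38.4% of all genes, and 5 below, against 41.8%. The excess of members above was thus not present on that scale. Scaled to the total of the table the medians of all genes were 1.65 and 1.21, 23 of 31 members lay above, against 55.9% of all genes, and none below, against 23.7%. The 10 members above under all 3 scalings were Klf6, Zbtb42, Zbtb44, Zfp28, Zfp57, Zfp444, Zfp467, Zfp521, Zfp612 and Zfp623. Among them, the gaps of Zfp28 (1.41-fold, interval 0.697 to 3.03), Zfp57 and Zfp521 were within counting error on the deposited scale. No member was below under all 3. The share of all genes above, or below, under all 3 scalings was not counted, so these counts have no background beside them.

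Zfp467 and Zfp612 stood farthest apart. Zfp467, a regulator studied in the choice between bone and fat cells, had 677 and 390 normalized counts in libraries 3 and 4. In libraries 1, 2, 5, 6, 7, 8 and 9 it had 8.20, 7.85, 7.61, 2.80, 10.8, 39.8 and 21. Library 4, the lower of the pair, was 9.79-fold above library 8, the highest of the others (interval 6.99 to 14.1). Libraries 8 and 9 were themselves above the remaining 5. The gene lies on chromosome 6 from 48427697 to 48445825 in mm10.

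Zfp612 had 163 and 101 normalized counts in libraries 3 and 4, from 138 and 88 reads. It had 0 in libraries 1 and 2, 1.09 in library 5, 2.80 in library 6 and 1.54 in library 7, each at most 2 reads, and 15.7 and 6.52 in libraries 8 and 9. The lower of libraries 3 and 4 was 6.40-fold above library 8 (interval 3.68 to 11.9), and library 3 was at least 33.1-fold higher than library 1, counted against 3 reads in library 1. The exact interval of that ratio, which also carries the counting error of library 3, starts at 26.5. The order of the libraries resembled that of Zfp467, with 3 and 4 high, 8 and 9 between and the rest near the floor. It lies on chromosome 8 from 110079746 to 110092741.

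Zfp521, a regulator of stem and progenitor cells, was also highest in libraries 3 and 4, then 8 and 9, at lower depth. Library 9, with 11 reads, was close to library 6, with 4 reads. Its values in libraries 1 to 9 were 4.92, 1.96, 55.4, 28.6, 1.09, 5.59, 1.54, 18.9 and 7.97, the 2 highest from 47 and 25 reads. Library 4 was 1.52-fold above library 8, with an interval from 0.794 to 2.95 that includes 1. Zfp57, which guards methylation at imprinted genes, reached 27.1 and 19.5 in libraries 3 and 4, was at 0 in library 6, and stood between 1.54 and 9.81 in the others. With at most 23 reads in any library, its gap to library 2 (1.98-fold, interval 0.702 to 6.87) was not resolved at this depth.

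**Figure D2:**
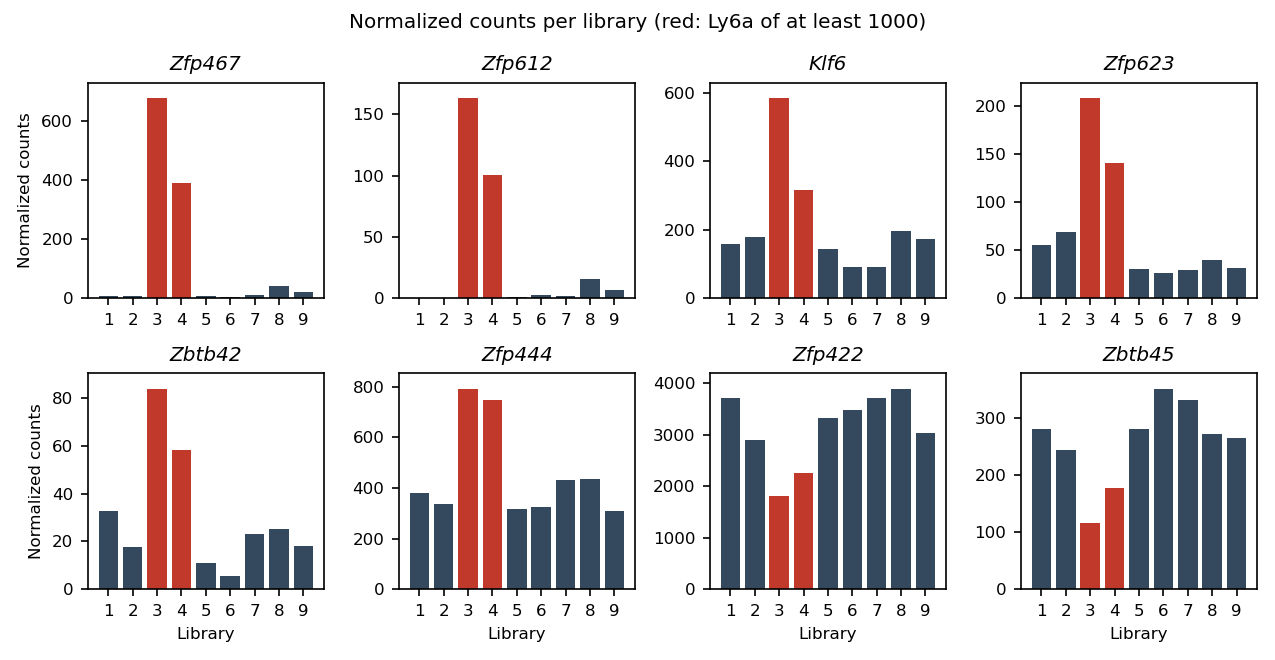
Bars give the normalized counts of 8 members in each of the 9 libraries, each panel with its own axis from 0, and red bars are libraries 3 and 4. Zfp467, Zfp612, Klf6, Zfp623, Zbtb42 and Zfp444 are highest in both red bars, and Zfp422 and Zbtb45 are lowest there.

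Klf6 is the only Krüppel-like factor that passed the filter and encodes a factor induced by injury and growth signals. Its values in libraries 1 to 9 were 159, 179, 583, 315, 143, 90.9, 90.6, 195 and 172 normalized counts. Libraries 3 and 4 did not overlap the others, and library 4 was 1.61-fold above library 8 (interval 1.34 to 1.95). The full range was 6.43-fold (interval 4.90 to 8.58), and with 1 normalized count added it was 6.37-fold, or 3.45-fold without library 3. Klf6 lies on chromosome 13 from 5861482 to 5870394.

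Of the 5 BTB genes that passed, 3 were higher in libraries 3 and 4 and 2 were lower, close to the 51% and 40.8% of all genes. Zbtb42, known from skeletal muscle, had 83.8 and 58.4 normalized counts there and 32.8, 17.7, 10.9, 5.59, 23.0, 25.2 and 18.1 in libraries 1, 2, 5, 6, 7, 8 and 9. Library 4 exceeded library 1, the next, by 1.78-fold (interval 1.04 to 3.15). Zbtb44 had 149 and 124 against 61.4 to 92.3, with a gap of 1.34-fold (interval 1.001 to 1.80). Zbtb38, which binds methylated DNA, had 178 and 121 against 55.3 to 98.6, a gap within counting error (1.23-fold, interval 0.923 to 1.64) that closed under median-of-ratios scaling.

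Zbtb45 and Zbtb34 were the BTB genes with the opposite order. Zbtb45 had 117 and 177 normalized counts in libraries 3 and 4 and 281, 245, 281, 351, 333, 273 and 266 in libraries 1, 2, 5, 6, 7, 8 and 9. Its higher value of the pair was 0.723 times that of library 2 (interval 0.567 to 0.922). The other libraries lay close together, between 245 and 351. Zbtb34 had 1 read in library 3 and 0 in library 4 and at most 14 reads elsewhere, with values of 1.96 to 11.2 in the other 7, so its place is not resolved at this depth.

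Among the SCAN and KRAB genes, Zkscan3, a repressor of autophagy genes, had 559 and 461 normalized counts in libraries 3 and 4 and 210.3 to 373 in the other 7. Library 8, at 373, came closest, and the gap of 1.24-fold had an interval of 1.07 to 1.43. It closed under median-of-ratios scaling. Zkscan5 had 35.4 and 27.5 against 11.8 to 25.4, a gap within counting error.

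Zfp623 and Zfp444 were the other Zfp genes above under all 3 scalings with a gap beyond counting error on the deposited scale. Zfp623 had 55.8, 68.7, 208, 141, 30.4, 26.6, 29.2, 39.8 and 31.9 normalized counts in libraries 1 to 9. Libraries 3 and 4 were highest, libraries 1 and 2 came next, and library 4 was 2.05-fold above library 2 (interval 1.40 to 3.07). Zfp444 had 790.3 and 748 in libraries 3 and 4 and 307 to 435 in the others, a gap of 1.72-fold (interval 1.52 to 1.95). Its 2 high values were nearly equal, unlike those of Klf6 or Zfp467.

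A further 7 Zfp genes had both values above the other 7 by less, and for all of them but Zfp358 the gap was within counting error. Zfp358 had 1139 and 1061 against 575 to 875, a gap of 1.21-fold beyond counting error (interval 1.10 to 1.33). Zfp148, which binds GC-rich sites, had 341 and 267 against 109.9 to 215, and Zfp869 had 418 and 481 against 216 to 360. Zfp688 had 230.0 and 229 against 123 to 194. Zfp319, Zfp28 and Zfp740 reached 188 and 104, 73.1 and 33.2, and 156 and 90.4, with 86.9, 23.6 and 90.2 as the highest of the others. For Zfp740 library 4 thus stood level with library 8. Of these 7, Zfp28 alone had both values above the others under median-of-ratios scaling.

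Zfp422 and Zfp414, the members with the highest level per exon length, were lower in libraries 3 and 4. Zfp358 and Zfp869 came next by that measure, with medians of 330 and 192 normalized counts per kilobase, and were above there. Zfp422, first described in tooth and bone as Krox-26, had the highest median of the members per kilobase of exons, 918 normalized counts. Its values in libraries 1 to 9 were 3714, 2901, 1807, 2245, 3327, 3474, 3709, 3880 and 3025. Libraries 3 and 4 lay below all others, the higher at 0.774 times library 2 (interval 0.723 to 0.828). Zfp414, with the next highest median per kilobase (429), had 653 and 665 there and 818 to 1235 in the other 7, at a ratio of 0.812 (interval 0.723 to 0.913). Zfp703 had 10 and 5 reads in these libraries, or 11.8 and 5.72 normalized counts, and 19.6 to 39.9 elsewhere, within counting error. Scaled to the table total, libraries 3 and 4 of Zfp422 stood 0.01 and 0.18 log2 units above the median of the 7, and those of Zfp414 at 0.12 and -0.01. Zbtb45 was at -0.60 and -0.15 on that scale, so the direction of Zfp422 rests on the scaling.

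The last 5 members overlapped the other libraries. Zfp106 had 193 and 137 in libraries 3 and 4 and 154 in library 1. Zfp266 had 47.2 and 35.5, with 44.0 in library 8, and Zfp14, Zfp697 and Zfp763 were high in library 3 (30.7, 23.6 and 40.1) but not in library 4 (10.3, 8.01 and 17.2).

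Library 3 was the highest of all 9 for 23 of the 29 members, against 44% of all genes, and library 4 for 1, Zfp869, against 12.2%. Library 3 lay above library 4 for 25 members, against 50.4% of all genes. Among the 19 members with both values above the others, this held for 18, where it held for 77.3% of the 1193 genes of the table with the same pattern. Under median-of-ratios scaling the count was 21 of 29, against 37% of all genes, and under the table total 26, against 58%.

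**Figure D3:**
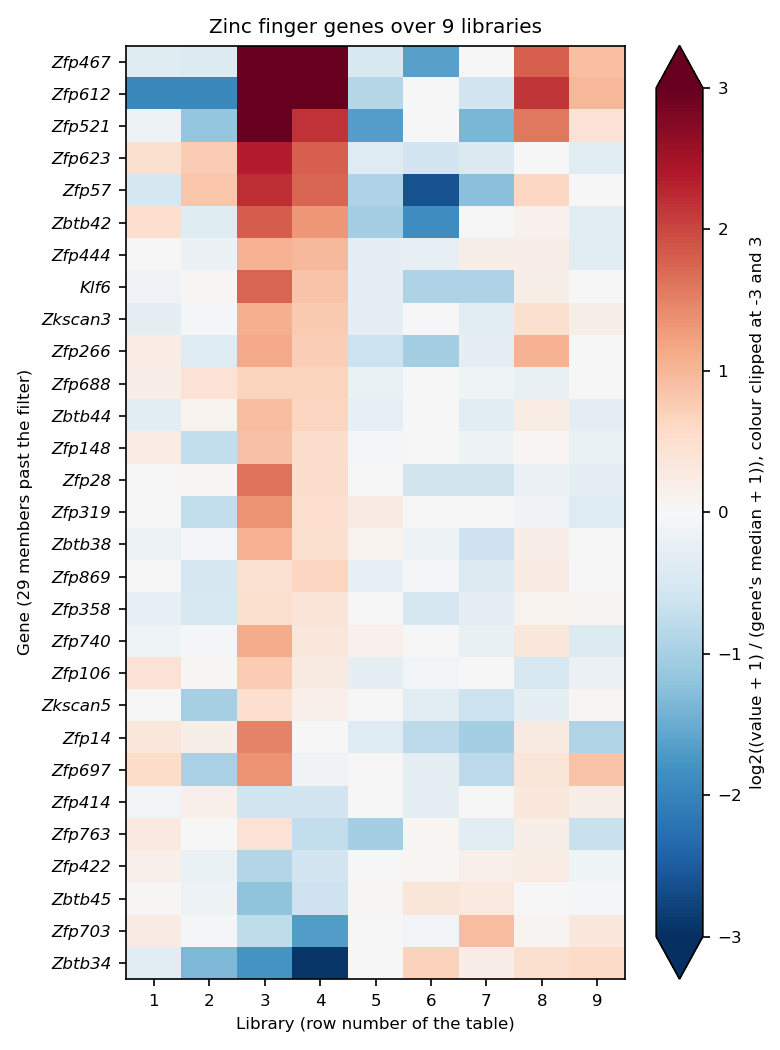
Rows are the 29 members and columns the 9 libraries, and colour gives log2 of normalized counts with 1 added over the gene's median with 1 added, clipped at -3 and 3. Rows are ordered by the lower of libraries 3 and 4, whose columns are red in most rows, and both are blue for Zfp414, Zfp422, Zbtb45, Zfp703 and Zbtb34 near the bottom.

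The full range over 9 libraries was at least 4-fold for 14 members, against 66.4% of all genes, on values with 1 normalized count added. The median range was 3.18-fold over the members and 6.16-fold over all genes. The count was 8 of 28 without library 3, which holds the highest value of most members, against 50.1% of all genes. Under table-total scaling it was 25 of 31, against 68.1%, so that the members then exceeded the background.

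Among the 7 libraries with low Ly6a a range of at least 2-fold was seen for 13 of 29 members, against 66.7% of all genes, and of at least 4-fold for 7, against 25.6%. The 2-fold count depended on the scaling, with 16 of 29 under median-of-ratios scaling, against 68.8%, and 25 of 31 under the table total, against 63.7%, which puts the members above the background instead of below it. It was 15 with a pseudocount of 0.5. These 7 were Zbtb34, Zbtb42, Zfp57, Zfp266, Zfp467, Zfp521 and Zfp612. The median range was 1.99-fold for the members and 2.46-fold for all genes. The ratio of the highest to the lowest of the 7 had a 95% interval wholly above 2-fold for 4 members, against 35.2% of all genes, namely Zfp266, Zfp467, Zfp521 and Zfp612.

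Library 8 was the highest of the 7 in all 4 of these genes. Zfp266 ranged from 9.79 in library 6 to 44.0 in library 8, a ratio of 4.50 (interval 2.00 to 11.9), and its range with 1 count added went from 4.17-fold to 2.37-fold without library 8. Zfp467 ranged 14.2-fold from 2 reads in library 6 (interval 3.68 to 122), and Zfp521 17.4-fold from 1 read in library 5 (interval 2.74 to 724). With 1 count added these ranges were 10.8-fold and 9.51-fold, and 5.79-fold and 4.29-fold without library 8 (4.74-fold for Zfp467 without library 6). For Zfp612, which is at 0 in libraries 1 and 2, library 8 was at least 3.20-fold above library 1 by the limit of 3 reads, with an exact interval that starts at 2.29. Its range with 1 count added, 16.7-fold, was 7.52-fold without library 8.

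Over all 29 members library 8 was the highest of the 7 for 14, against 29.6% of all genes, and the lowest for 2, Zfp106 and Zfp688, against 26.9%. Library 7 was the highest for 1 member, Zfp703 (39.9, with 19.6 to 26.1 in the others), against 27.7% of all genes. Libraries 2 and 6 were each the lowest for 8 members, against 11.1% and 13.8%. Library 8 also had the highest sum of the stem cell markers among the 7, 2998, and library 9 the next, 2021, while the other 5 had 777 to 880.1. Tie1 (1676 and 918) and Ndn (804 and 718) made up most of the sums of libraries 8 and 9. Of the 7, library 8 was highest for Procr, Ltb, Ndn, Tie1, Mecom and Kit, and library 9 for Ly6a and Hlf. Ly6a was at 71.3 in library 8, below libraries 2 (94.2) and 9 (187). The part of these markers in the members' values was not tested.

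Other members differed among the 7 along other libraries. Zbtb42 ranged 5.87-fold (interval 1.97 to 23.6) from library 6 to library 1, and its range with 1 count added went from 5.13-fold to 2.85-fold without library 6. Zfp623 ranged 2.59-fold (interval 1.44 to 4.78), with libraries 1 and 2 above the rest. Klf6 ranged 2.15-fold (interval 1.60 to 2.94), with libraries 6 and 7 at 90.9 and 90.6 and the other 5 between 143 and 195. The narrowest were Zfp422 at 1.34-fold (interval 1.26 to 1.42), Zfp444 at 1.42-fold and Zbtb45 at 1.43-fold.

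**Figure D4:**
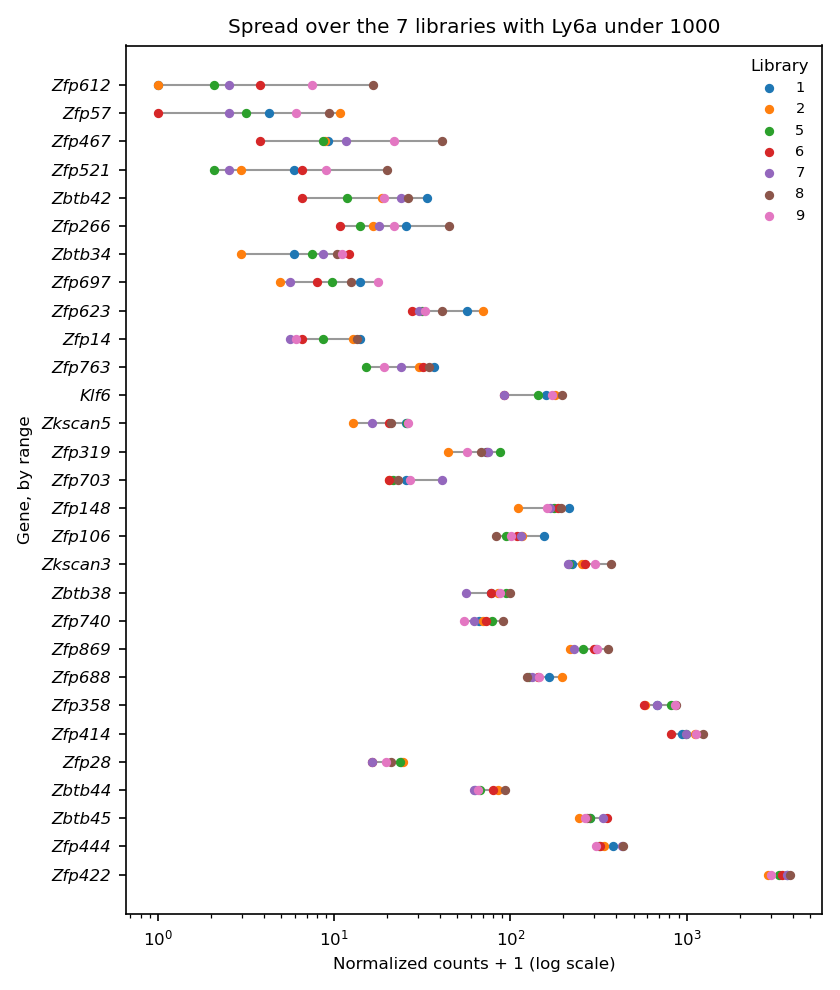
Each line joins the lowest and highest of the 7 libraries with Ly6a under 1000 for 1 member, on a log axis of normalized counts with 1 added, and coloured points are the libraries. Members are ordered by range, from Zfp422 at the bottom to Zfp612 at the top, where library 8 is the highest point.

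The 4 members that did not pass the filter had few reads throughout. Zbtb4, which binds methylated DNA, had 23 and 8 reads in libraries 3 and 4 and at most 5 elsewhere. Klf12, a repressor that works with CtBP, had 13 and 7 reads there, 1 in library 7, 2 in library 9 and 0 in the other 5. Zfp341, known for driving STAT3 transcription, had 0 and 1 reads in libraries 3 and 4 and 1 to 6 elsewhere, and Zfp354b had at most 8 in any library.

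Partners of these proteins, and the other regulators below, were read from lists drawn up by function, on the deposited scale only. Their places under the other scalings were not computed, so their directions can rest on the scaling, as for Zfp422. Of 18 listed corepressors of KRAB proteins, 3 were in the table, and all 3 lay lower in libraries 3 and 4 than in the others. Trim28, the corepressor that KRAB domains recruit, had 435 and 351 normalized counts there and 486 to 1157 in the other 7. Cbx1, a heterochromatin protein, had 229 and 315 against 442 to 799.8, and Dnmt1, the maintenance DNA methyltransferase, had 251 and 371 against 422 to 1337. Of 16 partners of BTB proteins 3 were measured, with Mta2 (4388 and 5277 against 7083 to 9565) and Mbd3 (1605 and 1741 against 1952 to 4659) lower and Sin3a (92.0 and 91.5 against 46.1 to 79.7) higher. Set beside the background of 40.8% lower and 51% higher, these counts are too few to be read further.

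Of 51 other zinc finger regulators of blood cells, 9 were in the table, with 7 above and 2 below, against 51% and 40.8% of all genes, and these too are few. Gata1, the master factor of megakaryocytes and red cells, had 37.8 and 165 in libraries 3 and 4 and 3626 to 8053 in the others, and Gfi1b, a repressor needed by the same lineages, had 1157 and 1264 against 2895 to 7593. Mecom and Prdm16, both needed by stem cells, had 183 and 64.1, and 348 and 268, with 19.9 and 69.2, both in library 8, as the highest of the others. Gata3 likewise had 2350 and 1316, then 331 in library 8 and 243 in library 9. Among the 7, library 8 stood highest for these 3 genes and for Bcl11a, against 29.6% of all genes, and another library for the other 5 of the 9. Bcl11a (1131 and 934 against 246 to 464), Ikzf1 (281 and 289 against 104 to 216), Bcl6 (18.9 and 52.6 against 0 to 11.8) and Sp1 (11.8 and 13.7 against 4.35 to 9.81) were the other 4 above. No counting interval was computed for the genes of these lists. Bcl6 and Sp1 came closest in library 2, where 1 read is 1.96 normalized counts, so their gaps rest on few reads. Both measured genes of 17 listed Krüppel-like factor targets and partners, S1pr1 (440.0 and 269 against 16.9 to 45.1) and Crebbp (64.9 and 25.2 against 8.39 to 24.6), were above. With 51% of all genes above, these are too few to be read further. For Crebbp, library 4 at 25.2 stood level with library 1 at 24.6.

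All 33 members are protein-coding in GENCODE M21, and chromosomes 7 and 8 hold 5 each. Exons of 7 members overlap those of another gene. Among these, Zfp414 shares 30.4% of its exon length with Gm20507 on the same strand, Zfp106 26.1% with Gm26899 on the opposite strand, and Zfp740 5.46% with Csad, the only overlapping gene that is in the table. Whether reads were counted by strand is not given in the sources used here, so reads of such pairs cannot be told apart, and related zinc finger genes can share reads.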

How the data were processed

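Messenger RNA was sequenced from 9 sorted bone marrow samples. What the authors deposited is 1 table of signal values, read counts normalized between libraries, in which no row has a name. Per the submitters' processing notes the build was mm10 and the tools named are Bowtie2, STAR and DESeq, with no role given, and how reads were counted and scaled and genes chosen is not given in the sources used here. Members and gene lists were chosen with earlier results of these data known.

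Each row's values are whole multiples of 1 step (0.724 to 1.96 normalized counts), and division by it gave whole reads within 0.1 for 100% of values. A count of 0 allows up to 3 reads, 2.17 to 5.89 normalized counts. For 2 libraries, the ratio of a gene has a 95% interval from the exact binomial split of their reads, which covers counting error only and not the picking of extremes. Ranges use log2 values with a pseudocount of 1. No library was put in a group, no mean was taken and no test between groups was run, so the planned limma comparisons were not made. The labels do not say whether samples came from separate animals.

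The naming rule took, among members past the filter, every Klf gene, the 8 with the highest median, the 8 widest and 4 narrowest over 9 libraries, the 8 most above and 8 most below in libraries 3 and 4, and the 8 widest over the other 7, where rules on width or on libraries 3 and 4 needed a highest value of at least 50, and every measured gene of the partner lists. The other members are given so that each is accounted for. Alternatives changed the pseudocount, filter, scaling, Ly6a threshold and libraries. The computation was tested on simulated data. Python 3.11.15, numpy 2.4.6, pandas 2.3.3, scipy 1.17.1 and matplotlib 3.10.9 were used.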

Additional observations from a re-analysis of the deposited data

How the results depend on the processing

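No paired analysis was possible because no row of the table carries a sample or replicate number. With a filter of 50 normalized counts, 19 members passed and 6 had a range of at least 4-fold (62.4% of all genes). Of the 19 members, 15 lay above in libraries 3 and 4 (50% of all genes) and 3 below (45%). Over the other 7 a 4-fold range was seen for 3 (21.1%) and a 2-fold range for 5 (62%). A pseudocount of 5 gave 8 members with a 4-fold range over 9 libraries (61.9% of all genes) and 2 over the 7 (14.9%). Raising values under 3 reads to 3 reads gave 4 over the 7 (18.7%). Scaled to the table total, 25 of 31 members had a 4-fold range (68.1% of all genes), 25 a 2-fold range over the 7 (63.7%), none (0) lay below (23.7%), and the median range of the members over all libraries was 7.25-fold. With median-of-ratios scaling 10 members lay above (38.4% of all genes). The cause was not tested. Leaving out 1 library in turn gave 28 to 29 members past the filter. Of these, 18 to 23 lay above (48.9% to 53% of all genes) and 4 to 5 below (40.8% to 43.8%). A 4-fold range was seen for 8 to 14 (50.1% to 66.1%). Over the 7 a 4-fold range was seen for 4 to 7 (18.7% to 24.6%) and a 2-fold range for 12 to 13 (53.6% to 65%). Median ranges were 2.40 to 3.18-fold over all libraries and 1.77 to 1.99-fold over the 7. The other Ly6a thresholds took the same libraries, since no library lies between 187 and 4256, and so test nothing. Of 986 ranges of single members under these settings, 936 stayed within the counting interval and 50 did not. Many of the 936 could not move. A filter, or a Ly6a threshold that takes the same libraries, leaves a gene's own range unchanged. Leaving out library 3 or 4 leaves a range over the other 7 unchanged. Of 58 ranges under each scaling, 26 moved under table-total scaling and 12 under median-of-ratios scaling. Zfp57, Zfp697 and Zbtb34 had at most 23 reads in any library, and the gap between libraries 3 and 4 and the others was not resolved for Zfp57 and Zbtb34.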
